A study of Mus musculus with 7 samples.

Results

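The 35 genes described here mark the macrophages and monocytes of the liver, and were compared between livers that lack the microRNA miR-122 and wild-type livers. They form a list of gene symbols, and a probe set counted for a gene only where the platform annotation gave that symbol alone. All 35 were measured, of 18193 genes in all, by 57 probe sets. The livers came from 2-month-old mice on a mixed B6/129 background: 4 animals were knockouts for miR-122 (KO-94, KO-91, KO-90 and KO-03) and 3 were wild type (WT-104, WT-103 and WT-27). Total RNA of the frozen tissue of each animal went on 1 Affymetrix expression array. The labels call the mutants mir-122 knockout with no further allele, promoter, Cre or sex. Hepatocytes, not macrophages, are the main liver cells that make miR-122, and no probe set used here is annotated to miR-122, so its loss was not checked on the arrays. The study asked how liver gene expression differs in its absence.

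Kupffer cells are the resident macrophages of the liver. They line the sinusoids, take up particles, bacteria and old blood cells from portal blood, and carry surface proteins such as Clec4f, Timd4 and Vsig4. Monocytes enter from the blood in injury, carry the fractalkine receptor Cx3cr1 and integrins such as Itgam, and can become macrophages that lack part of the resident set. Both kinds of cell express shared genes of the phagocyte lineage, such as the growth factor receptor Csf1r, the lineage transcription factor Spi1 (PU.1) and lysosomal enzymes.

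In the knockout livers 2 of the 35 genes were called higher, the endotoxin co-receptor Cd14 and the fractalkine receptor Cx3cr1, and 0 were called lower. Of the 7 genes grouped here as resident Kupffer cell genes, not all of them limited to these cells, 0 were called. Their differences ran from 0.010 in Clec4f to 0.89 in Marco, with a median of 0.18. Clec4f had a log2 level of 9.57 ± 0.05 (SD, n = 3) in wild-type livers and of 9.58 ± 0.16 (SD, n = 4) in knockout livers. The median difference was 0.50 over the 35 genes against 0.013 over all genes, and 33 of the 35 did not pass the test one by one. Differences are log2 knockout minus wild type. A gene was called at an adjusted p under 0.05 in limma, with Benjamini-Hochberg adjustment over all 18193 genes. At that rule 2.58% of all genes were called higher and 0.951% lower, against 5.71% of the members higher. Many of all genes are dim. Among genes with a mean of at least 6 in either genotype, 485 of 8882 were called higher, against 2 of 29 members, there Cd14 and Cybb. The call of Cx3cr1 was lost in any fit that left out 1 array other than KO-03, after renewed quantile normalization (adjusted p = 0.0509 in limma) and after median centring (0.0545), and that of Cd14 without WT-27, WT-103, WT-104 or KO-90. The median over the 35 genes was 0.24 without WT-27 and KO-94 together, the arrays with the lowest and highest means. Bulk liver RNA cannot tell more cells of a type from more RNA per cell.

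Array medians lay between 4.65 and 4.72. Detection calls were not used here, so a floor for levels was set on each array at its brightest bacterial control probe set (of 27), which lay from 4.71 to 5.23. The rule was taken from an earlier look at these data. Of the 35 genes, 29 lay above it on all 7 arrays. Itgam and Gpnmb lay at or under it on every array, Itgax and Cx3cr1 on every wild-type array, and Trem2 and Tlr4 on some arrays. The number of animals limits the precision, and nothing in the labels names litters or scan days. WT-27 was the lowest wild-type array in 25 of the 35 genes and WT-104 the highest in 27. KO-03 was the lowest knockout array in 23 and KO-94 the highest in 23. The mean of the 35 genes was 7.12 in WT-27, 7.31 in WT-103 and 7.55 in WT-104. It was 7.59 in KO-03, 7.92 in KO-90, 7.69 in KO-91 and 8.16 in KO-94, so KO-03 and WT-104 nearly met.

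Spi1, a member itself, encodes PU.1, an ETS-family factor that binds purine-rich DNA with a GGAA core in the promoters of many phagocyte genes. Promoters were taken from a RefSeq table of build GRCm38.p6, as the 250 bases before and the 50 after each gene's start. The table held 27 of the 35 genes. The letters GAGGAA, searched on both strands, stood in the window of 15 of these 27 genes (55.6%) and in 28.3% of all 32851 windows of the table. Of the 6 resident Kupffer cell genes with an entry 3 held them. Such a match is a description of the letters and not of binding, and the array files name no build. The 5 promoters below are shown because C1qb and C1qc are neighbouring genes of 1 protein complex, Cybb differed most among the genes that were not called, Cx3cr1 was called, and Clec4f is the resident marker with the smallest difference. Capitals mark GAGGAA or its reverse complement, which Cx3cr1 and Clec4f do not have in this window.
C1qb (chr4:136886151-136886450, minus strand): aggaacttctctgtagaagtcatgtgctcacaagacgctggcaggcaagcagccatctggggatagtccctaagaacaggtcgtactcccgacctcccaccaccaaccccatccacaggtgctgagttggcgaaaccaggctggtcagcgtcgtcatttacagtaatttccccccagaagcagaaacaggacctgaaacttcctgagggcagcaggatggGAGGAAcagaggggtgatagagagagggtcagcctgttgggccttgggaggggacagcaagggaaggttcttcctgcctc
C1qc (chr4:136892865-136893164, minus strand): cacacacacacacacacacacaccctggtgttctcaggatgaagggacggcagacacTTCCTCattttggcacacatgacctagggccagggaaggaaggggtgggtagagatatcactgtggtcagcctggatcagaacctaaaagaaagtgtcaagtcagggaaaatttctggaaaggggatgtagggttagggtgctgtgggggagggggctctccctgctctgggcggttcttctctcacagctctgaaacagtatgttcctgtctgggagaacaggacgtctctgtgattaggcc
Cybb (chrX:9469275-9469574, minus strand): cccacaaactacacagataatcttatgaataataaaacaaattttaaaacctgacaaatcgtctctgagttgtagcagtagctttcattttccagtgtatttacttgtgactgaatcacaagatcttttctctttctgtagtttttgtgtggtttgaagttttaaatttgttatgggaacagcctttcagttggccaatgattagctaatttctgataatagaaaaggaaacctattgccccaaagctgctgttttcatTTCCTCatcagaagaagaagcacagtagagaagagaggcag
Cx3cr1 (chr9:120068247-120068546, minus strand): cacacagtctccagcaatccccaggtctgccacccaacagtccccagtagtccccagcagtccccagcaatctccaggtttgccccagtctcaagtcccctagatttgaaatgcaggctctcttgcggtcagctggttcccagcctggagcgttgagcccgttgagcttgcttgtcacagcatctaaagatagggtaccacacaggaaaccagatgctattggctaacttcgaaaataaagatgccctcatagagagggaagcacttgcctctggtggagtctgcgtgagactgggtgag
Clec4f (chr6:83656067-83656366, minus strand): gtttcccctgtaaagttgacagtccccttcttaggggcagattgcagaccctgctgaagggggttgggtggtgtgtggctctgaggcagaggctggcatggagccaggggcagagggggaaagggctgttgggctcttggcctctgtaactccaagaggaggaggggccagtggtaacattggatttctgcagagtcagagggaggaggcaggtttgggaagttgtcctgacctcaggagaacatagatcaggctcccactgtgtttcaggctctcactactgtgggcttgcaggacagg
In C1qb the letters began 30 bases before the gene's start, in C1qc 193 bases before it, and in Cybb at base 10 after it.

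Resident Kupffer cell genes came first by role, and 0 of the 7 were called. The C-type lectin Clec4f, largely limited to Kupffer cells, read 9.62, 9.57 and 9.52 in WT-27, WT-103 and WT-104 against 9.56, 9.79, 9.39 and 9.59 in the knockouts KO-03, KO-90, KO-91, KO-94, the order kept below. Wild-type livers lay inside the range of the knockouts, and the difference was 0.010 ± 0.12 (SE). Its 95% interval reached from -0.26 to 0.28, which leaves room for up to a 1.21-fold rise. Timd4, a receptor for phosphatidylserine on dying cells, read 6.50, 6.23 and 7.26 in wild type and 6.38, 7.21, 6.70 and 6.97 in knockout. All knockouts of Timd4 fell within the wild-type range.

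The secreted scavenger protein Cd5l, which macrophages release, read 10.28, 10.80 and 11.09 in wild type and 10.59, 10.84, 10.60 and 11.05 in knockout. Its knockout values also lay within the wild-type range. Vsig4, a complement receptor of resident macrophages, read 9.12, 9.59 and 9.73 in wild type and 9.55, 9.88, 9.72 and 9.98 in knockout. WT-27 stood lowest and the groups overlapped, with a difference of 0.30 ± 0.17 (SE). The haemoglobin scavenger receptor Cd163 read 7.43, 7.55 and 7.38 in wild type and 8.002, 7.19, 7.34 and 8.08 in knockout. For Cd163, KO-03 and KO-94 lay above all wild-type livers and KO-90 and KO-91 below them.

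Adgre1, an adhesion-type receptor used as a classical mouse macrophage antigen, read 7.56, 8.06 and 8.46 in wild type and 8.05, 8.35, 8.11 and 8.33 in knockout, with no knockout above WT-104. The exception in this group was Marco, a scavenger receptor that binds bacteria. Marco read 5.24, 5.67 and 6.22 in wild type and 6.29, 6.62, 6.77 and 6.73 in knockout. Every knockout lay above every wild type, by a small margin between WT-104 and KO-03. The difference was 0.89 ± 0.22 (SE), a 1.86-fold higher mean, and its limma adjusted p of 0.0667 missed the threshold. A second probe set of Marco differed by 0.52. Over the group the median difference was 0.18, and 1 of 7 genes (14.3%) lay higher in every knockout than in any wild type, as 9.15% of all genes did.

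**Figure D1:**
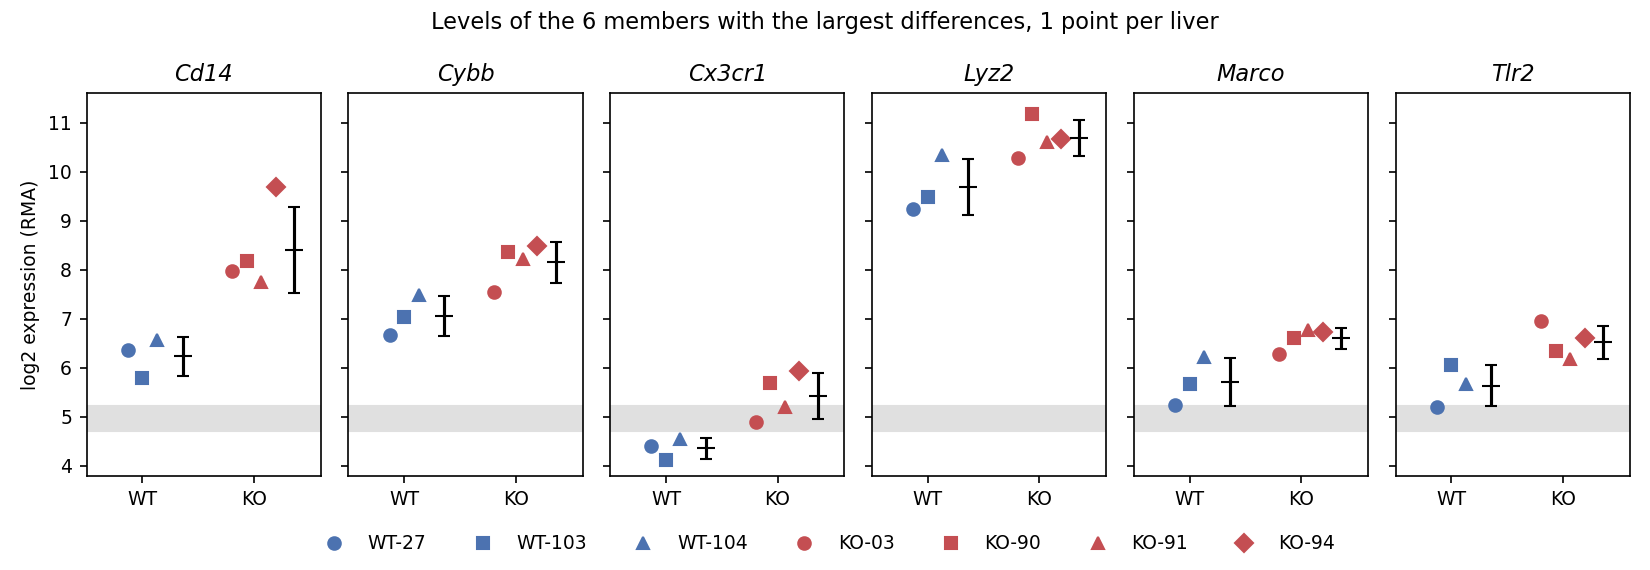
Log2 expression (y axis) of the 6 genes with the largest differences in the 3 wild-type (blue) and 4 knockout (red) livers, 1 point per liver, with mean and SD in black; the grey band is the range of the floor, 4.71 to 5.23. In Cd14, Cybb, Cx3cr1, Marco and Tlr2 every knockout lies above every wild type, and in Lyz2 KO-03 lies below WT-104; wild-type Cx3cr1 lies under its arrays' floors.

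Receptors for mannose and for modified lipoprotein differed little, and 0 of 2 were called. Mrc1, the mannose receptor, is also made by sinusoidal endothelial cells. It lay between 8.89 and 9.08 in wild type and between 8.85 and 9.04 in knockout, a difference of -0.044 ± 0.11 (SE). It was the only negative one among the 35 genes, but turned to 0.0083 without WT-27, while 52.5% of all genes had a difference above 0. Msr1, the class A scavenger receptor for modified lipoprotein, lay between 7.60 and 7.97 in wild type and between 7.48 and 8.09 in knockout. Its difference was 0.013 ± 0.19 (SE), and 2 of its other probe sets differed by 0.28 and 0.15.

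The 3 chains of C1q, the recognition unit of the classical complement pathway, lay higher together but were not called. C1qa, C1qb and C1qc are neighbours in the genome, and tissue macrophages are their main source. C1qb read 9.32, 9.63 and 9.81 in wild type and 9.81, 10.47, 10.05 and 10.65 in knockout. KO-03 lay level with WT-104, and the other knockouts lay above all wild types. C1qb differed by 0.66 ± 0.21 (SE), with a limma adjusted p of 0.155. C1qc differed by 0.50 and C1qa by 0.48, with limma adjusted p of 0.230 and 0.310. In the brightest probe set of each of the 3 chains KO-94 was highest, KO-90 next and KO-03 lowest among knockouts. Of the other probe sets of C1qb, which end in _x_at and may detect related sequences, one differed by 0.25 and the other by -0.023. Both took the reverse order, with KO-03 highest and KO-94 lowest among knockouts. KO-03 and KO-94 read 9.29 and 8.43 in the former, and 8.61 and 7.94 in the latter.

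Of the 10 genes of the macrophage lineage and its lysosomes 0 were called, while 6 had an unadjusted p under 0.05, as 10.2% of all genes did in this direction. Cybb encodes the catalytic subunit of the phagocyte oxidase, which makes superoxide. It read 6.68, 7.03 and 7.49 in WT-27, WT-103 and WT-104 against 7.55, 8.37, 8.22 and 8.49 in the knockouts KO-03, KO-90, KO-91, KO-94. No wild type reached a knockout, although KO-03 lay only just above WT-104. The difference of Cybb was 1.09 ± 0.25 (SE), a 2.13-fold higher mean, with a limma adjusted p of 0.0532 that fell under the threshold in 5 of 18 refits. Both other probe sets of Cybb differed by a similar 1.19 and 1.23, but in each of them the genotypes overlapped. There WT-104 read 6.75 and 6.08, above KO-03 at 6.68 and 5.89.

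Lyz2, the lysozyme of myeloid cells, read 9.24, 9.49 and 10.34 in wild type and 10.29, 11.18, 10.62 and 10.67 in knockout. WT-104 lay above KO-03, and the difference was 1.001 ± 0.28 (SE) with a limma adjusted p of 0.0994. The lysosomal membrane protein Laptm5 differed by 0.58 ± 0.16 (SE), and the leukocyte phosphatase Ptprc (CD45), which all white blood cells carry, by 0.56 ± 0.16 (SE). Each lay higher in every knockout than in any wild type. Knockout livers held 8.01 to 8.46 of Ptprc against 7.39 to 7.85 in wild type. The probe set used for Laptm5 ends in _x_at and may detect related sequences. Dimmer ones ending in _s_at differed by 0.61 and 0.22, and 1 without either ending by only 0.010. The genotypes overlapped in each of these dimmer probe sets.

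The endosomal glycoprotein Cd68, a general macrophage marker, lay between 6.63 and 6.96 in wild type and between 7.05 and 8.17 in knockout, without overlap. Its difference was 0.68 ± 0.25 (SE), limma adjusted p = 0.214. Cathepsin S, Ctss, a protease of antigen processing, differed by 0.56 and the actin-binding protein Aif1 (IBA1) by 0.50, both with overlap. The remaining 3 lay closer: the lineage factor Spi1 at 0.35, Csf1r at 0.10 and the pore-forming protein Mpeg1 at 0.059. Csf1r is the receptor that macrophages need to survive, and it read 10.38 to 10.87 in wild type and 10.55 to 11.13 in knockout, although its dimmer probe sets differed by 0.25 and 0.45.

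**Figure D2:**
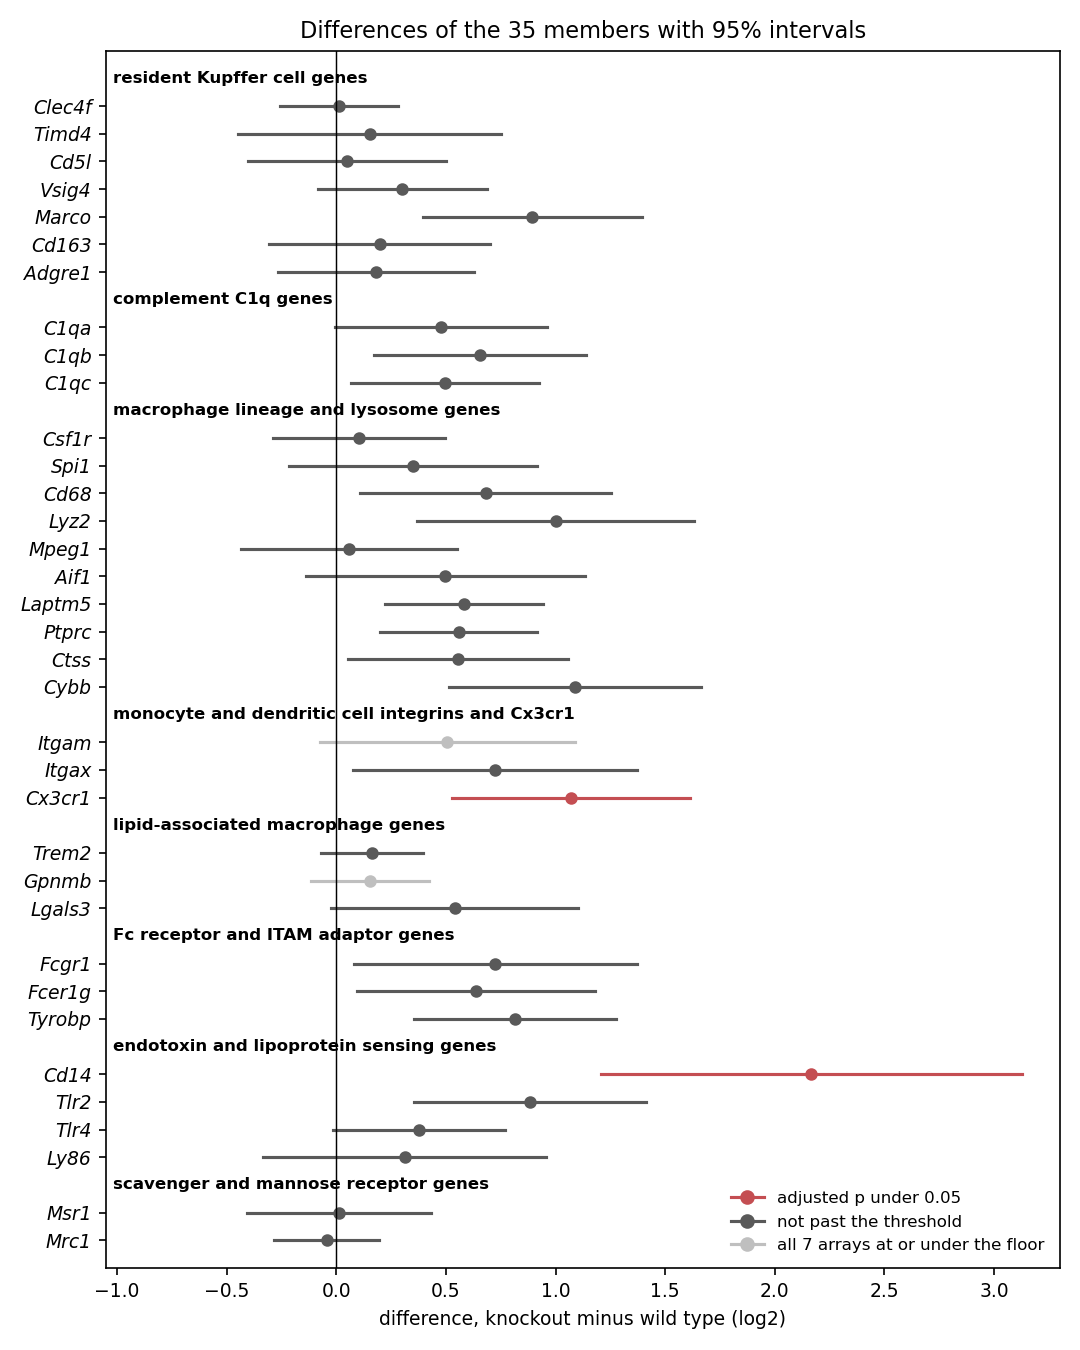
Difference between knockout and wild type on the log2 scale (x axis) with its 95% interval for each of the 35 genes, grouped by role; red marks the called genes and light grey those that cleared the floor on no array. Cd14 at 2.17 stands farthest from 0, and 6 of the 7 resident Kupffer cell genes have intervals that include 0, all but Marco at 0.89.

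Monocyte genes were dim in these livers. Cx3cr1, the receptor for the chemokine fractalkine, read 4.40, 4.13 and 4.55 in wild type, under the floor of each array, and 4.89, 5.69, 5.21 and 5.94 in knockout, above it. The knockouts lay above all wild types, by 1.07 ± 0.24 (SE) as measured (limma adjusted p = 0.0470). Against the floor of the wild-type arrays the mean rose by at least 0.53, or at least 1.44-fold. Such a bound, here and below, allows for the floor but not for the spread between animals. The second probe set of Cx3cr1 did not clear the floor on any array. In a fit of every probe set on its own, which called 1.29% of them higher, the adjusted p of Cx3cr1 was 0.0757 and Cd14 was the 1 member called.

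The integrin Itgax (CD11c), which dendritic cells and some macrophages carry, read 4.69 to 4.90 in wild type, at or under the floor, and 4.91, 5.99, 5.12 and 6.11 in knockout. KO-90 and KO-94 stood well above the other 5 livers. The mean was at least 0.63 higher, without a call (limma adjusted p = 0.245). Itgam (CD11b), the integrin of monocytes and neutrophils, did not clear the floor on any array, with 3.25 to 3.51 in wild type and 3.44 to 4.68 in knockout.

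Genes of lipid-associated macrophages, a state described in fatty and scarred liver, were near the floor except for 1. Trem2, a lipid-sensing receptor, lay between 4.92 and 5.02 in wild type and between 5.04 and 5.23 in knockout, a difference of 0.16 ± 0.10 (SE). Gpnmb, a glycoprotein of late endosomes, did not clear the floor. Galectin-3, Lgals3, lay between 6.35 and 6.99 in wild type and between 6.78 and 7.66 in knockout. Its difference of 0.54 ± 0.25 (SE) was not called, with a limma adjusted p of 0.324.

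The antibody receptor Fcgr1 and the signalling adaptors Fcer1g and Tyrobp lay above wild type in every knockout, and 0 of 3 were called. Such a separation, in the brightest probe set of each gene, held in 13 of the 35 members (37.1%) and in 9.15% of all genes. The 13 include Itgax, Cx3cr1 and Trem2, where KO-03 read 4.91, 4.89 and 5.04, under the WT-104 floor of 5.10. Itgax and Trem2 separated only narrowly, with WT-104 at 4.90 and 5.02. Tyrobp (DAP12), the adaptor that carries signals of Trem2 and other receptors, read 8.25, 8.65 and 8.79 in wild type and 9.06, 9.59, 9.12 and 9.74 in knockout. The gap of Tyrobp between WT-104 and KO-03 was wider than in Cybb or Marco. Its difference was 0.82 ± 0.20 (SE), a 1.76-fold higher mean, with a limma adjusted p of 0.0684. Fcer1g, the gamma chain shared by Fc receptors, differed by 0.64 ± 0.24 (SE), limma adjusted p = 0.222. Fcgr1, the high-affinity receptor for IgG, lay between 5.50 and 5.60 in wild type and between 5.72 and 7.12 in knockout. Its difference of 0.73 ± 0.28 (SE) was not called, KO-94 was the highest liver, and a dimmer probe set differed by 0.25.

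Receptors that sense bacterial products held the largest difference of the set. Cd14 hands lipopolysaccharide to Tlr4 and is made by macrophages and also by hepatocytes in inflammation. It read 6.36, 5.79 and 6.56 in WT-27, WT-103 and WT-104 against 7.99, 8.19, 7.75 and 9.70 in the knockouts KO-03, KO-90, KO-91, KO-94. All 4 knockouts lay more than the whole wild-type range of 0.77 above WT-104, and KO-94 stood highest. Cd14 rose by 2.17 ± 0.42 (SE), or 4.49-fold with a 95% interval of 2.31 to 8.75 (limma adjusted p = 0.0286). Without KO-94 the difference was 1.74, with a limma adjusted p of 0.00651. Without WT-27, WT-103, WT-104 or KO-90 the difference lay between 1.94 and 2.33, and the limma adjusted p reached 0.137.

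Tlr2, the receptor for bacterial lipoproteins, read 5.21, 6.05 and 5.66 in wild type and 6.96, 6.35, 6.18 and 6.61 in knockout. The genotypes did not overlap, and here KO-03 was the highest liver and not the lowest knockout. The difference was 0.88 ± 0.23 (SE), a 1.85-fold higher mean, and was not called (limma adjusted p = 0.0827). Tlr4, the lipopolysaccharide receptor itself, lay between 4.35 and 5.02 in wild type and between 4.88 and 5.32 in knockout, around the floor. Ly86 (MD-1), partner of a Tlr4 relative, overlapped between genotypes at 6.76 to 7.91 and 7.07 to 7.92.

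**Figure D3:**
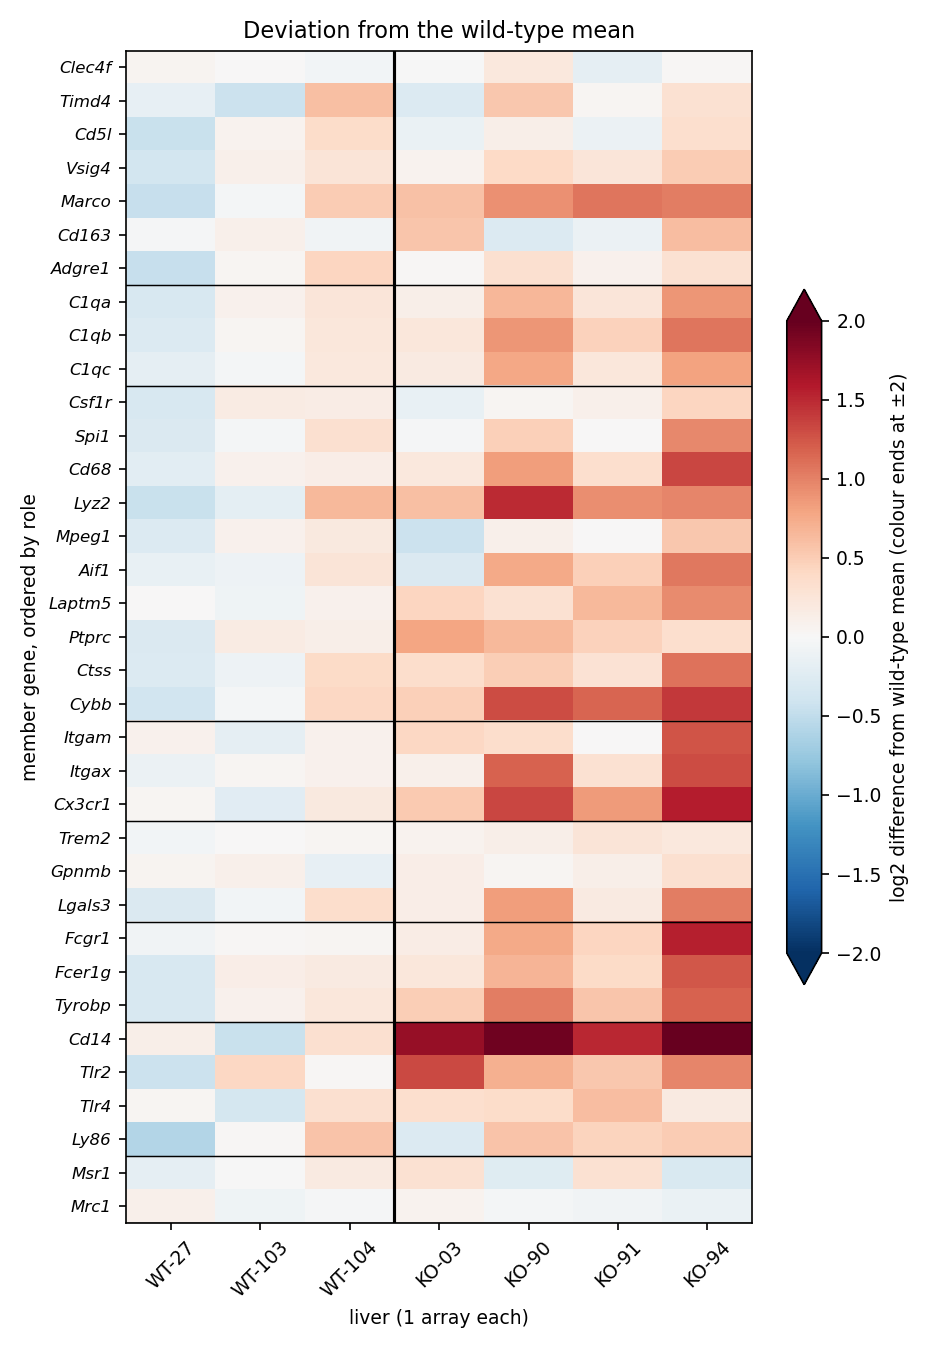
Each row is 1 of the 35 genes in role order and each column 1 liver; colour gives the log2 difference from the wild-type mean, with red higher and blue lower and the scale ending at 2 in each direction. The Cd14 row is the reddest, KO-94 and KO-90 are red in most rows, and the rows of Clec4f, Msr1 and Mrc1 stay pale throughout.

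The knockout livers differed among themselves, in an order that the mean over all genes also took. The mean deviation of the 35 genes from the wild-type mean was 0.26 in KO-03, 0.36 in KO-91, 0.59 in KO-90 and 0.84 in KO-94. Over all 18193 genes it was -0.019, 0.042, 0.054 and 0.089 in the same order of livers. The wild types also took 1 order, with WT-27 lowest and WT-104 highest, at -0.21 and 0.22 over the 35 genes and -0.028 and 0.036 over all genes. KO-94 exceeded all wild types in 27 of the 35 genes (77.1%), against 41.7% of all genes. KO-90 did so in 26 (74.3% against 34.3%), KO-91 in 20 (57.1% against 28.9%) and KO-03 in 18 (51.4% against 23.4%). Resident Kupffer cell genes deviated less than the 35 as a whole, by 0.11, 0.14, 0.32 and 0.44 in the same order of livers. The Fc receptor and adaptor group deviated by 0.29, 0.46, 0.82 and 1.33, which is 0.18, 0.31, 0.50 and 0.89 above the resident group. The 3 C1q chains stood 0.06, 0.17, 0.46 and 0.47 above the resident group. The macrophage lineage, monocyte integrin and endotoxin-sensing groups also stood above it in each knockout. The monocyte integrin group, of dim genes, stood 0.24, 0.25, 0.63 and 0.93 above the resident group there, but also 0.27 above it in WT-27. The mean of the lipid-associated macrophage genes stood at -0.0020, 0.04, 0.01 and 0.07 from the resident group. The floor limits this mean, with Gpnmb at or under it on every array and Trem2 near it. Lgals3, above the floor, read 6.78, 6.82, 7.48 and 7.66 in the same order of livers, against a wild-type mean of 6.64. The scavenger and mannose receptor group stood at 0.07, -0.03, -0.46 and -0.66 from the resident group. These values depend on the probe set of Msr1, whose brightest read 7.55 in KO-90 and 7.48 in KO-94, under every wild type. A dimmer probe set of Msr1 read 7.41 and 7.56 there, against 7.01 to 7.41 in wild type. In wild-type livers the Fc receptor group lay from 0.14 below to 0.10 above the resident group. The difference between groups of genes was not tested. The SD of a gene was larger in knockout than in wild type in 22 of the 35 genes.

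Lists of genes that work beside the members, 9 in number, were counted as a whole, with 123 measured entries, of which 7 (5.69%) were called higher and 1 (0.813%) lower, against 2.58% and 0.951% of all genes. Among 16 macrophage transcription factors 1 rose, Irf8, a factor of monocyte and dendritic cell fate. Irf8 read 5.77, 5.97 and 6.25 in wild type and 6.60, 7.29, 6.95 and 7.41 in knockout, a difference of 1.06 ± 0.21 (SE) (limma adjusted p = 0.0277, up to 0.116 without 1 array). Knockouts of Irf8 did not overlap wild types and took the order KO-94, KO-90, KO-91, KO-03, as in the brightest probe sets of C1q. Klf4, another monocyte factor, was under the floor in every wild type and in 2 of 4 knockouts, which gives no fold, and was not called. Of 13 further Kupffer cell genes 0 passed, led by the haem oxygenase Hmox1 at 0.88 and the receptor kinase Axl at 0.57.

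Of 16 genes of monocyte recruitment 2 rose and 1 fell. The adhesion molecule Vcam1 rose by 0.96 ± 0.16 (SE) and the calcium-binding protein S100a6 by at least 1.03. The chemokine Ccl9 fell by 1.30 ± 0.27 (SE), from 10.69 to 10.90 in wild type to 8.65, 9.89, 9.71 and 9.74 in knockout. KO-03 was the lowest there. Of 12 macrophage growth factors and niche signals 0 passed, with the receptor chain Csf2ra at 0.55 and the endothelial ligand Gdf2 at 0.49, and Il34, a Csf1r ligand, never cleared the floor. Of 14 companions of lipid-associated macrophages 2 rose, annexin Anxa5 by 1.68 ± 0.28 (SE) and the tetraspanin Cd9 by 1.27 ± 0.29 (SE). The call of Cd9 ended with a robust prior, renewed quantile normalization, median centring or the mean of all probe sets, at limma adjusted p of 0.0507 to 0.0546. Both are also expressed outside macrophages.

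Of 24 genes of endotoxin receptor signalling 2 were called higher: the feedback inhibitor Tnfaip3 (A20) rose by 0.94 ± 0.19 (SE), while Tlr1 stayed under the floor on all 7 arrays and gives no fold. Of 15 Fc receptor and adaptor signalling genes 0 passed, with the inhibitory receptor Sirpa at 0.72 and the IgG receptor Fcgr3 at 0.71. The genotypes overlapped in Fcgr3 but not in Sirpa. Of 5 other oxidase subunits 0 passed: Cyba, the partner chain of Cybb, differed by 1.02 and the GTPase Rac2 by 0.88. Nox4, an oxidase of other cell types that stands in the list, lay lower in every knockout, at 6.86 to 8.15 against 8.27 to 8.67, a difference of -0.80. Of all genes 6.62% lay lower in every knockout. Of 8 classical complement partners 0 passed. The integrin chain Itgb2 differed by 0.92 and the C1 inhibitor Serping1 by -0.36.

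Markers of other cells moved with some of these results, and their part in them was not tested. Of 10 neutrophil markers, S100a8 rose by 3.33 ± 0.56 (SE) and S100a9 by 3.16 ± 0.54 (SE), 0 fell and 8 did not pass. S100a8 read 4.48 in WT-27, under the floor of that array at 4.71. The mean of the list ran from 4.37 to 4.77 in wild type and from 5.01 to 5.86 in knockout, while its median difference was only 0.22. The granule genes Mpo, Camp, Ltf and Mmp8 and the receptor Cxcr2 cleared the floor on no array. S100a9 was highest in KO-94 and KO-03, at 10.14 and 9.17, against 7.74 and 7.88 in KO-90 and KO-91, and these were also the top 2 livers for Tlr2 but not for Tyrobp or C1q.

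Of 7 dendritic cell markers 0 passed. The 2 with the smallest p were Cd209a, which lay above the floor in 1 of 4 knockouts and in no wild type, and Ccr7, which lay under it throughout. The list mean was 4.51 to 4.66 in wild type and 4.67 to 4.86 in knockout. Of 9 T cell, 6 B cell and 7 NK cell markers 0 passed. Of the 2 with the smallest p in each list, Cd2, Cd79a, Prf1 and Klrd1 lay under the floor on all 7 arrays. Thy1 was under it in every wild type and in 1 of 4 knockouts, and Cd79b differed by 0.53. All 7 NK cell markers, 4 T cell and 3 B cell markers cleared the floor on no array. Of 8 sinusoidal endothelial markers 0 passed, with Lyve1 at -0.66 and Pecam1 at 0.46. That list ran from 7.58 to 7.65 in wild type and from 7.50 to 7.73 in knockout.

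Of 9 stellate cell markers 3 rose, Pdgfrb by 1.03, Dcn by 0.90 and Hand2 by 1.09 (0.43 and not called as the mean of its probe sets), with list means of 8.26 to 8.35 and 8.63 to 8.98. Of 6 bile duct cell markers 4 rose: Cd24a by 2.84, Tspan8 by at least 1.70, Epcam by 2.18 and Krt19 by 1.39, with 2 of 3 wild-type arrays of the last pair under the floor. With the probe set highest in wild type for each gene 2 of the 6 rose, Epcam differed by -0.17 and Tspan8 by 0.44 without a call, and the median of the list was 0.44 against 1.79. The list means were 4.47 to 4.71 in wild type and 5.56 to 6.66 in knockout. Of 8 hepatocyte markers 0 passed, led by the aminotransferase Tat at 0.90 and the factor Hnf4a at 0.30, and the list ran from 13.02 to 13.12 and from 13.25 to 13.33. Of the 17 genes outside the 35 that are named here as called, all but Cd24a and Tspan8 lost the call without at least 1 array, with limma adjusted p of up to 0.198. Leaving out WT-103 ended 15 of these calls, WT-27 10, WT-104 8, KO-90 8, KO-91 7, KO-94 7 and KO-03 0.

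**Figure D4:**
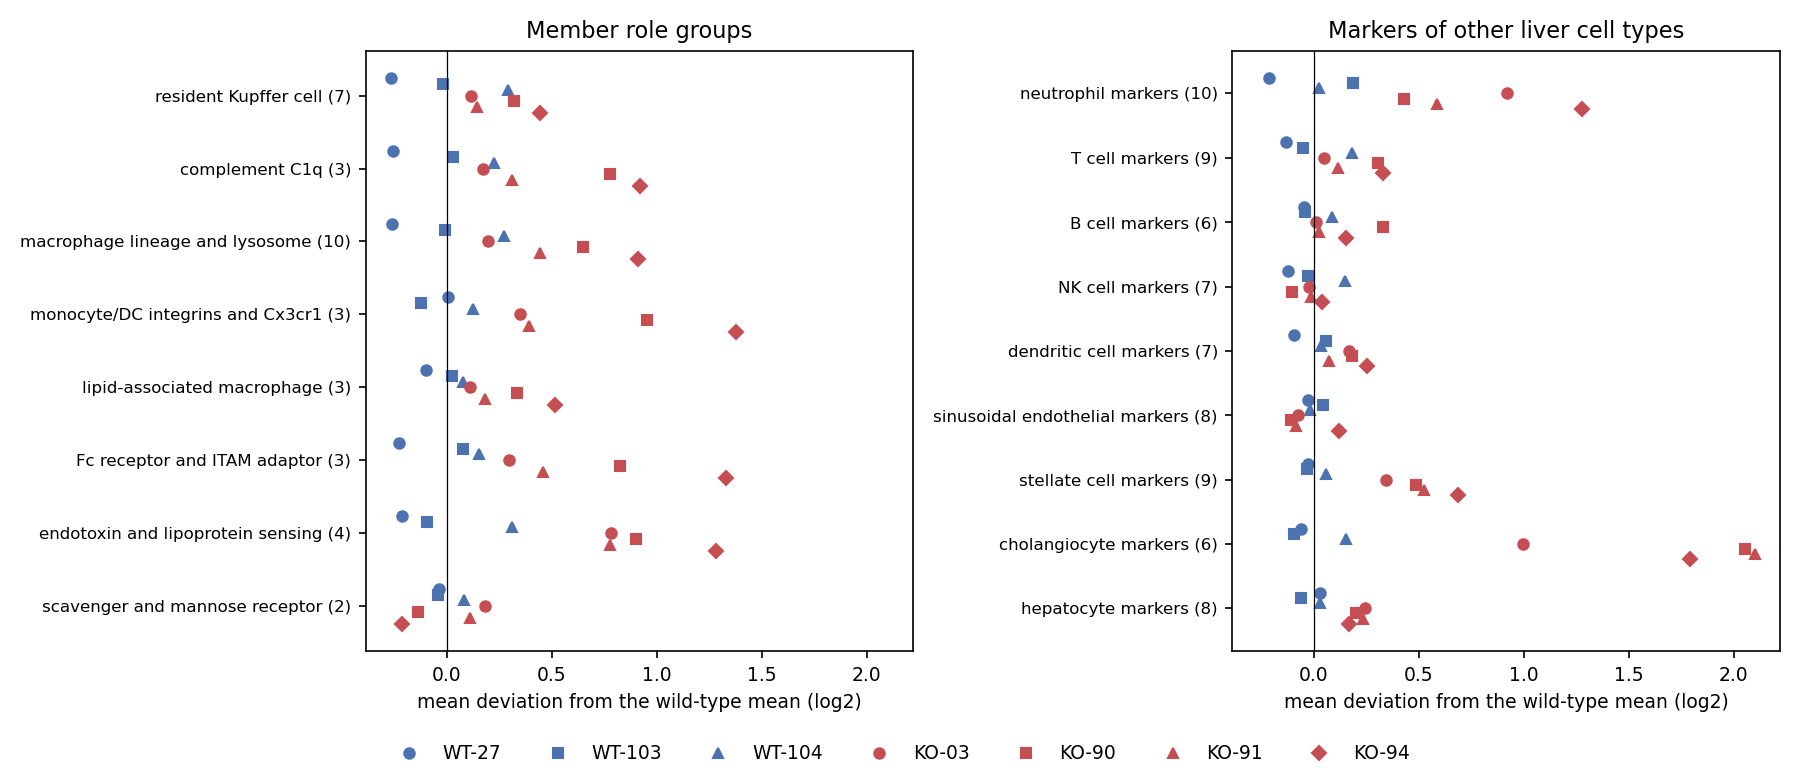
Mean log2 deviation from the wild-type mean (x axis) of the member role groups (left) and of markers of other liver cells (right), 1 point per liver with wild type blue and knockout red, and the number of measured genes in brackets. Resident Kupffer cell, C1q, macrophage lineage and scavenger receptor genes overlap between genotypes, and the other role groups do not. Bile duct markers, read from their brightest probe sets, lie 0.997 to 2.10 above the wild-type mean in knockout.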

How the data were processed

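Livers of 3 wild-type and 4 knockout mice were grouped by sample title. No animal number is shared by both genotypes, and no pairs were formed. The deposited values are log2 levels that the authors computed by RMA (Partek), per the labels' design text. RMA corrects background, normalizes quantiles across arrays and summarises probes, so a shift shared by all genes would be removed. Software versions and a genome build were not given in those sources. Of 45101 probe sets, 34945 that were no controls had 1 gene symbol, 932 had several and 9211 were unnamed here. Each of 18193 genes was read from its brightest probe set, by the mean of all 7 arrays.

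Knockout was compared with wild type in a two-sided test without covariates by limma 3.58.1 (lmFit, then eBayes; R 4.3.3), with Benjamini-Hochberg adjusted p over all genes and a threshold of 0.05. Intervals are moderated 95% intervals. The p-values set the difference against the spread between these animals, which eBayes draws toward a value estimated over all genes. The fit was also run on simulated data, but the outcome is not given and no result here rests on it. Tables were made with pandas 2.3.3 under Python 3.11.15, and plots with matplotlib 3.10.9.

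The members, role groups, companion lists and floor were chosen with earlier results of these data known. Named are all members, the 2 genes of each other list with the smallest p and every called gene of a list with at most 4 calls. Alternatives were a trended or robust variance prior, quantile normalization done again, median centring, array weights, 2 filters on dim genes, other probe set rules, stricter thresholds and leaving out each array. Leaving out WT-27 and KO-94 together was added after seeing the data. Promoters came from a RefSeq table.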

Additional observations from a re-analysis of the deposited data

Results flagged for a closer look

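Among 75 genes and 29 list means, 7 were such that 1 of the 4 knockout livers stood apart from the other 3 by Dixon's test, where chance alone flags about 5% of groups. Ly86 was 7.07 in KO-03 against 7.79 to 7.92 in the other knockouts. Ccl9 was 8.65 in KO-03 against 9.71 to 9.89, and Tspan8 was 5.30 there against 6.93 to 7.23. Gdf2 was 8.51 in KO-94 against 8.08 to 8.15. Ccr7 was 4.39 in KO-90 against 3.74 to 3.85, all under the floor. The mean of the complement partners of C1q was 9.37 in KO-94 against 9.20 to 9.22. The mean of the sinusoidal endothelial markers was 7.73 in KO-94 against 7.50 to 7.53.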

How the results depend on the processing

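The count of members called higher, 2, became 7 with array weights, 1 with median centring, 0 at an adjusted p under 0.01 and 1 without WT-27 and KO-94 together. It ranged from 0 (without WT-27, WT-103 or KO-90) to 7 (without KO-03) when 1 array was left out. Without WT-104 it was again 2, but these were Lyz2 and Marco. With renewed quantile normalization and with either filter on dim genes the 2 were Cd14 and Cybb. The 7 without KO-03 were Cd14, Cx3cr1, Cybb, Marco, Tyrobp, C1qb and Aif1, and with array weights Laptm5 and Lyz2 stood in place of the last pair. The cause was not tested. No member was called lower under any of these settings, and 1 member probe set, that of Cd14, was called over all probe sets. Over all genes the 470 higher and 173 lower calls became 909 and 344 with array weights, 141 and 31 at an adjusted p under 0.01, 258 and 66 with a fold of at least 2, and 199 and 62 without WT-27 and KO-94 together. Leaving out 1 array gave 132 to 892 and 37 to 252.

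Members with differences near 0 changed sign. With array weights Clec4f was at -0.068 and Cd5l at -0.020, with renewed quantile normalization Msr1 was at -0.038, and without probe sets ending in _x_at or _s_at Trem2 was at -0.014. Without WT-27 and KO-94 together Cd5l was at -0.27, Adgre1 at -0.092, Csf1r at -0.17, Mpeg1 at -0.24, Ly86 at -0.046 and Mrc1 at 0.035. Leaving out 1 array gave Clec4f -0.058 to 0.073, Timd4 -0.063 to 0.45, Cd5l -0.17 to 0.23, Adgre1 -0.052 to 0.40, Csf1r -0.056 to 0.19, Mpeg1 -0.10 to 0.22, Msr1 -0.082 to 0.12, Mrc1 -0.086 to 0.0083. These were uncalled throughout. Epcam was at -0.17 with the probe set highest in wild type. Levels near the floor limit Itgam, Gpnmb, Itgax, Cx3cr1, Trem2 and Tlr4.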
